A study of Mus musculus with 130 samples.

Results

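Heme is made from glycine and succinyl-CoA by a chain of enzymes that starts and ends in the mitochondrion. Alas1 (5-aminolevulinate synthase of non-erythroid cells) makes 5-aminolevulinate and sets the rate of the pathway in liver. Alad joins 5-aminolevulinate into the pyrrole porphobilinogen in the cytosol, Uros closes the linear chain of pyrroles into uroporphyrinogen, and Urod removes carboxyl groups to give coproporphyrinogen. Cpox and Ppox carry out the next oxidation steps in mitochondria, and Fech (ferrochelatase) inserts ferrous iron. Hepatocytes use much of this heme for cytochromes P450, and free heme represses Alas1. These 7 enzymes were taken by their symbols, matched to Ensembl identifiers, and were read out of tables of 35274 genes (diet study) and 35711 genes (strain panel). All 7 passed the filter on low counts in both tables, among 13560 and 15695 genes.

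Liver RNA of 130 mice, all labelled male, was sequenced. In the diet study, 15 C57BL/6J mice were fed 1 of 5 diets, with 3 mice per diet: 50 ppm iron (labelled sufficient), 500 ppm iron (labelled elevated), 2% carbonyl iron, 2% carbonyl iron with cellulose as the fibre source, or chow. In the panel, 115 mice of 114 inbred strains were all fed 2% carbonyl iron, for 6 weeks after 4 weeks on chow: 56 BXD strains (from C57BL/6J and DBA/2J), 20 AXB/BXA strains (from C57BL/6J and A/J), 4 BXH, 3 CXB and 31 other inbred strains. Each strain was 1 mouse, apart from 129X1/SvJ with 2 mice, which were averaged, so a strain's value carries the spread of single mice, and the panel holds no mice on a control diet. The labels give no age, hour of day or batch, and no diet duration for the 15 mice.

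Library totals were 10420708 to 20357169 counts in the diet study and 9407880 to 20572879 counts in the panel. In CPM (counts scaled to library size), the summed level of 10 hepatocyte markers was 91373 to 115851 over the diet mice and 66605 to 180256 CPM over the panel. The mouse labelled BXD65 had a summed level of 4 Y-linked genes of 3.94 CPM, against 118 CPM or more in all other panel libraries, which goes against its male label. Without it, as with it, no enzyme was called between the BXD and AXB/BXA families and 13 of the 29 relations across strains passed. Of 4 genes known to respond to iron loading, 3 rose on 2% iron against 50 ppm, Hamp (hepcidin) among them by 1.4 ± 0.30 on the log2 scale.

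By GENCODE M21 (GRCm38), Alad (ENSMUSG00000028393, chr4:62509169-62519918, minus strand) and Urod (ENSMUSG00000028684, chr4:116989965-116994413, minus strand) both lie on chromosome 4. Alas1 (ENSMUSG00000032786) lies at chr9:106233455-106248654 (minus strand), Uros (ENSMUSG00000030979) at chr7:133686243-133710072 (minus strand), Cpox (ENSMUSG00000022742) at chr16:58670292-58717636 (plus strand) and Ppox (ENSMUSG00000062729) at chr1:171275990-171281186 (minus strand).

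Promoter sequence from RefSeq (GRCm38.p6) was held for 6 of the 7 enzymes, in 9 windows of 250 bases before a start. It is printed for Alad and Urod, the enzymes that fell on 2% iron against chow. Capitals mark the E-box CACGTG, a motif bound by clock and MYC-family factors.
Alad, chr4:62520064-62520313, minus strand: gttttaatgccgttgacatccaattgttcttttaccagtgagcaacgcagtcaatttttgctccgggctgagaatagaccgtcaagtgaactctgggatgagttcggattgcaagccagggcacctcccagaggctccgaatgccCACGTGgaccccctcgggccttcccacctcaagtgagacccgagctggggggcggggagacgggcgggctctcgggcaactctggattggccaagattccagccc
Urod, chr4:116994414-116994663, minus strand: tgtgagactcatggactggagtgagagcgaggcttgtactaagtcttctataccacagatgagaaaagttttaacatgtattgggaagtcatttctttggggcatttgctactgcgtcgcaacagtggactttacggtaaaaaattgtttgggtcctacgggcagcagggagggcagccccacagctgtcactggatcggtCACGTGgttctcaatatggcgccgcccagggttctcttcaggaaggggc
Each of these windows held 1 E-box, as did a second Alad window nearer to the gene. Over all members, 3 of 6 (Alad, Urod and Uros) had an E-box in a window. The NRF1 motif (the palindrome bound by NRF1, a factor of mitochondrial genes) was in windows of 2 of 6 (Alas1, with 2 matches, and Uros). AGATAA, a motif of GATA factors, was in none. All motifs were searched on both strands, and of 32851 windows of 250 bases 6.02% held the E-box, 3.74% the NRF1 motif and 9.99% the GATA motif. These shares are per window, whereas the counts of members are per gene, with 9 windows for 6 genes, so they cannot be compared directly. A match describes these letters and is not a binding measurement.

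In C57BL/6J mice on 50 ppm iron, Alas1 had the highest level in TPM (a level per transcript length, scaled to the same total in every library), and Uros and Ppox the lowest. The mean was 198 ± 47.1 TPM for Alas1, 83.2 ± 8.64 for Cpox, 66.4 ± 5.96 for Alad, 51.6 ± 4.75 for Fech, 44.2 ± 5.63 for Urod, 12.7 ± 3.93 for Uros and 11 ± 3.60 for Ppox (SD, n = 3 each). Fech and Urod, and likewise Uros and Ppox, are neighbours in that order whose mice overlapped. Alad and Fech did not overlap: the lowest Alad mouse had 59.7 TPM and the highest Fech mouse 57 TPM.

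**Figure D1:**
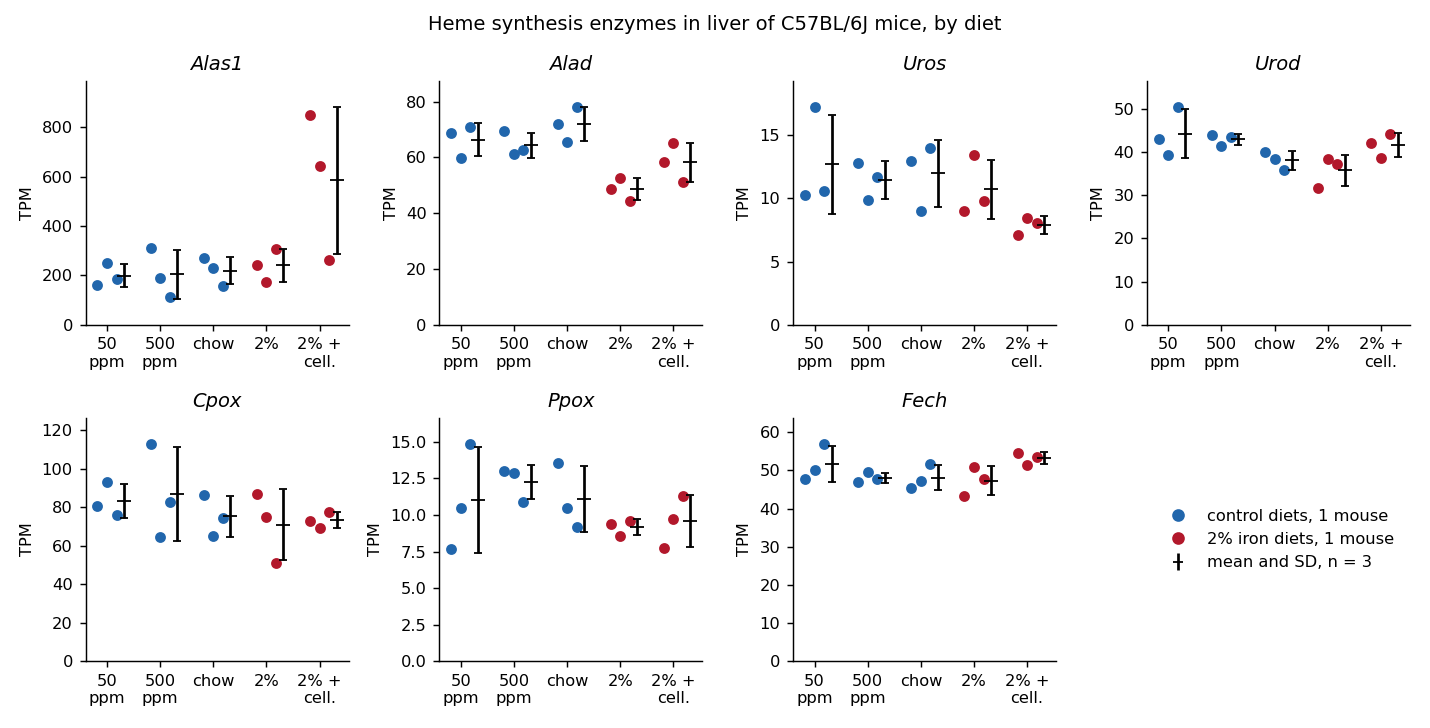
Level of each enzyme in TPM (vertical axis, from 0) in each of 15 C57BL/6J livers by diet (horizontal axis), with the mean and SD of 3 mice. Alad on 2% iron lies between 44.5 and 52.5 TPM, below every mouse on 50 ppm, 500 ppm or chow, and 2 of 3 Alas1 values on 2% iron with cellulose stand at 642 and 849 TPM.

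Alad was the enzyme that fell on 2% iron against each of 50 ppm, 500 ppm and chow. Its level was 48.9, 52.5 and 44.5 TPM in the 3 mice on 2% iron. On 50 ppm it was 68.7, 59.7 and 71.0 TPM, on 500 ppm 69.4, 61.1 and 62.6 TPM, and on chow 72.1, 65.7 and 78.0 TPM. All 9 mice on those diets lay above all 3 mice on 2% iron, and the 50 ppm, 500 ppm and chow groups overlapped each other. In CPM, the unit of the test, Alad fell from 71.9 ± 9.36 on 50 ppm to 50.0 ± 1.99 on 2% iron (SD, n = 3 each), a log2 change of -0.52 ± 0.11 (SE) with an edgeR adjusted p of 0.0059. Against 500 ppm the log2 change was -0.48 ± 0.11 (edgeR adjusted p = 0.0112), and against chow -0.70 ± 0.11 (edgeR adjusted p = 0.000569). Each of these calls of Alad was made in all 13 alternative fits. The comparisons with 50 ppm, 500 ppm and chow share the mice on 2% iron.

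Against 50 ppm, 1 of the 7 enzymes was called, and 15.7% of all genes tested were called. With RLE size factors (relative log expression, another scaling of library size), with a minimum of 10 counts in every library, or with DESeq2, the count was 2, through Urod. Urod, whose loss of activity in liver underlies porphyria cutanea tarda, an iron-related disorder, was 31.7, 38.4 and 37.3 TPM on 2% iron and 43, 39.3 and 50.4 TPM on 50 ppm. The groups did not overlap, with a log2 change of -0.34 ± 0.11 and an edgeR adjusted p of 0.0502. The other enzymes below 50 ppm on average did not pass the test: Cpox had a log2 change of -0.30 ± 0.18, Uros -0.28 ± 0.16, Fech -0.19 ± 0.09 and Ppox -0.03 ± 0.10. Fech (ENSMUSG00000024588), which adds the iron, lies at chr18:64452914-64490251 (minus strand). Alas1 was at 242, 174 and 308 TPM on 2% iron against 159, 250 and 184 TPM on 50 ppm, and the groups overlapped (log2 change 0.20 ± 0.41, edgeR adjusted p = 0.792). In all, 6 of 7 enzymes had a negative log2 change, with a median of -0.28, beside a median of 0.01 over all genes. In 3 of 7 (Alad, Urod and Fech) every mouse on 2% iron lay below every mouse on 50 ppm in CPM, as did 17.7% of all genes tested.

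Between 500 and 50 ppm, none of the 7 enzymes was called, and 0.0% of all genes were (edgeR). None of the 7 had an unadjusted p under 0.05, against 428 of 13560 genes. DESeq2 called 2 genes and limma none, and neither called an enzyme. Log2 changes of the enzymes ran from -0.09 (Fech) to 0.09 (Ppox). On chow against 50 ppm none was called, with 0.391% of all genes called. There, none of the 7 had an unadjusted p under 0.05, against 1408 of 13560 genes. DESeq2 and limma called no enzyme there either. Against 500 ppm, 1 enzyme (Alad) was called on 2% iron (11.3% of all genes), and against chow 2, Alad and Urod (22.8% of all genes). The Urod call against chow (log2 change -0.34 ± 0.11, edgeR adjusted p = 0.0383) was lost without replicate 1 or 3 of 2% iron (adjusted p = 0.138 and 0.0743) and without replicate 1 or 2 of chow (adjusted p = 0.0913 and 0.135). On the TPM scale that Urod change was -0.09 (limma adjusted p = 0.636), where the median of all genes was 0.10.

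**Figure D2:**
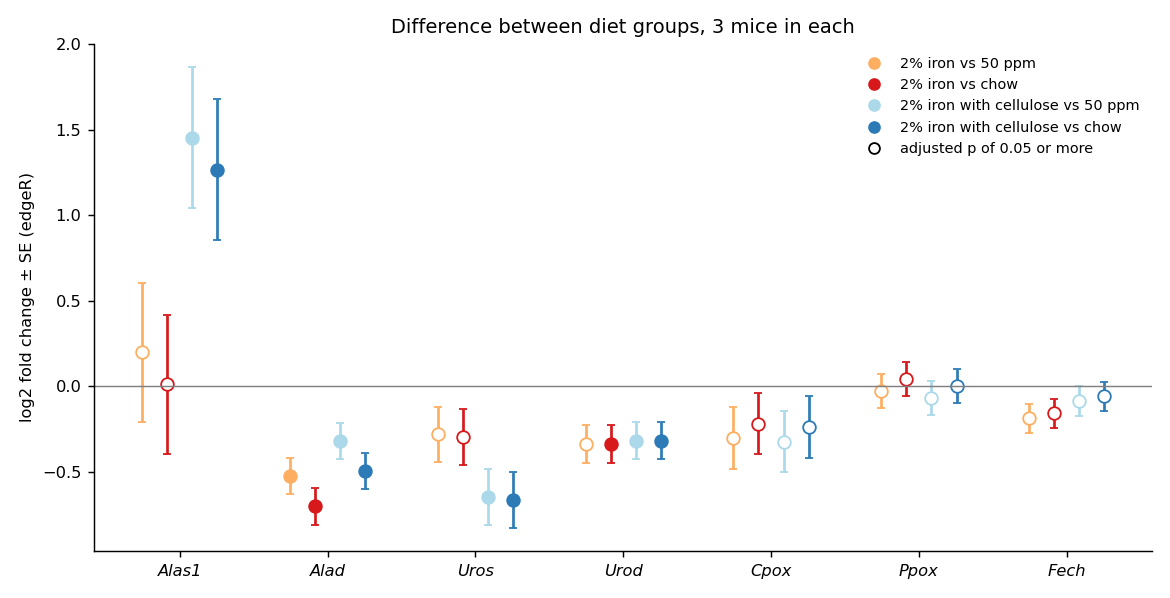
Log2 fold change with its SE (vertical axis, edgeR on counts, 3 mice per group) of each enzyme (horizontal axis) for both 2% iron diets against 50 ppm and chow, with filled points at an adjusted p under 0.05. Alad points run from -0.70 to -0.32 and all 4 are filled, while Alas1 is at 0.20 and 0.01 on 2% iron and at 1.45 and 1.27 on 2% iron with cellulose.

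On 2% iron with cellulose, Alas1 rose while Uros, Alad and Urod fell. Alas1 was 849, 642 and 264 TPM in the 3 mice, whereas the 12 mice on other diets ranged from 113 to 310 TPM. Replicates 1 and 2 stood above all other mice, and replicate 3 lay inside the range of the other diets. The log2 change was 1.45 ± 0.41 against 50 ppm (edgeR adjusted p = 0.0174) and 1.27 ± 0.41 against chow (edgeR adjusted p = 0.0278). Against 50 ppm the Alas1 call was lost without cellulose replicate 1 (adjusted p = 0.0869) or 2 (adjusted p = 0.0511), or without 50 ppm replicate 1 (adjusted p = 0.0640) or 3 (adjusted p = 0.0604). Against chow it was lost without cellulose replicate 1 or 2 (adjusted p = 0.134 and 0.0760) and without any 1 chow mouse (adjusted p = 0.0534 to 0.0986).

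Uros fell to 7.10, 8.46 and 8.08 TPM on the cellulose diet, from 10.3, 17.2 and 10.6 TPM on 50 ppm and 13, 9.0 and 14 TPM on chow. All 3 cellulose mice were below those 6 mice. Its log2 change was -0.65 ± 0.16 against 50 ppm (edgeR adjusted p = 0.00936) and -0.66 ± 0.16 against chow (edgeR adjusted p = 0.00643). With limma on log2(TPM + 1) both calls of Uros were lost (adjusted p = 0.0611 and 0.0751). Alad was 58.3, 65.1 and 51.2 TPM, with a log2 change of -0.50 ± 0.11 against chow (edgeR adjusted p = 0.00278) and -0.32 ± 0.11 against 50 ppm (edgeR adjusted p = 0.0373). The Alad call against 50 ppm was made in 5 of 13 alternative fits, and was lost without cellulose replicate 1 or 3 (adjusted p = 0.0794 and 0.115) and without 50 ppm replicate 1 or 3 (adjusted p = 0.173 and 0.0653). The Alad call against chow was lost with limma on log2(TPM + 1) (adjusted p = 0.0599). The cellulose and chow mice share no animal with the 2% iron and 50 ppm mice, and Alad was lower on the iron diet in both pairs of groups. Both pairs were tested in 1 fit of all diets. Mean Alad was 81.4 CPM on chow, above 71.9 CPM on 50 ppm and 69.7 CPM on 500 ppm. In CPM the cellulose mice overlapped the 50 ppm mice.

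Urod was called lower against 50 ppm (log2 change -0.32 ± 0.11, edgeR adjusted p = 0.0405) and chow (-0.32 ± 0.11, edgeR adjusted p = 0.0352) on the cellulose diet. In TPM it was 42.1, 38.6 and 44.2 on cellulose and 40.1, 38.3 and 35.8 on chow, and the log2 change against chow turned to 0.13 with limma (adjusted p = 0.42), where the median of all genes was 0.15. The ratio of Urod counts to TPM, divided by the median of that ratio over genes in the same library and set relative to its mean over mice, was 1.09 to 1.1 on chow and 0.827 to 0.991 on cellulose, and its part in the Urod calls was not tested. The Urod call against 50 ppm was lost without cellulose replicate 2 or 3 (adjusted p = 0.0911 and 0.110) and without 50 ppm replicate 1 or 3 (adjusted p = 0.163 and 0.0699). Against chow it was lost without cellulose replicate 2 or 3 (adjusted p = 0.0801 and 0.110) and without chow replicate 1 or 2 (adjusted p = 0.0852 and 0.132). In all, 4 of 7 enzymes were called against 50 ppm (29.7% of all genes) and 4 of 7 against chow (35% of all genes); on log2(TPM + 1) with limma the count was 1 in each, Alas1. Between the cellulose diet and 2% iron none of the 7 was called (0.0811% of all genes), by edgeR, DESeq2 or limma. Unadjusted edgeR p was under 0.05 for 2 of 7, and for 1757 of 13560 genes. Alas1 differed there by 1.26 ± 0.41 on the log2 scale (edgeR adjusted p = 0.226), or 1.62 without cellulose replicate 3 (edgeR adjusted p = 0.04).

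The circadian clock is known to drive Alas1 in liver. Of 16 clock genes, 9, 10 and 3 lay outside the CPM range of the 12 mice on other diets in cellulose replicates 1, 2 and 3. Of all 13560 genes tested, 33.8%, 31.4% and 27.3% did so in the same mice. In Dbp, a clock output, replicate 2 alone lay outside that range, and in Per3, Cry1, Nr1d1, Nr1d2 and Bhlhe41 no cellulose mouse did. Arntl, Per2 and Ciart were picked after their values were seen. Arntl, a core activator of the clock, was 2.42 and 1.76 CPM in cellulose replicates 1 and 2 and 11.2 CPM in replicate 3. Per2 was 35.2 and 34 CPM in the first pair against 6.39 CPM in replicate 3, and Ciart, a clock repressor, 42 and 34.9 against 4.08 CPM. In the other 12 mice Arntl was 6.18 to 25.2 CPM, Per2 4.27 to 21.9 CPM and Ciart 0.647 to 14.4 CPM. The 2 mice with the highest Alas1 were thus also those with the lowest Arntl and the highest Per2 and Ciart. Of the 16 clock genes, 5 were called against 50 ppm on the cellulose diet (3 higher and 2 lower), near the share of all genes (29.7%), and 2 were called lower on 2% iron, where 7.17% of all genes were called lower and 15.7% in either direction. The part of the clock in the Alas1 difference was not tested, and the labels give no hour of collection.

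Other genes of heme handling were tested on 2% iron against 50 ppm, where 8.52% of all genes were called higher and 7.17% lower. Of 4 genes of heme breakdown, 1 rose: Hmox1, the inducible heme oxygenase, was 57.8, 44 and 53.5 CPM against 6.78, 9.67 and 13.6 CPM, a log2 change of 2.36 ± 0.52 (edgeR adjusted p = 0.00842). Its 500 ppm mice were at 7.14, 44.7 and 9.49 CPM, so replicate 2 lay in the range of 2% iron. Of 17 measured genes of porphyrin transport and mitochondrial supply, 5 fell and 1 rose. Abcb10, a mitochondrial inner-membrane transporter, fell by 0.67 on the log2 scale (SE 0.15, edgeR adjusted p = 0.00777) and Abcb6, a porphyrin transporter, by 0.53 (SE 0.12, edgeR adjusted p = 0.00934). Slc48a1, a heme transporter of lysosomes, rose by 0.43 (SE 0.09, edgeR adjusted p = 0.00642). The median log2 change of these 17 genes was -0.31.

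Among 11 regulators of Alas1, 3 fell and none rose on 2% iron against 50 ppm (15.7% of all genes were called, 7.17% lower), and their median log2 change was 0.04. They were Nr1d1 (REV-ERBα, a clock repressor; log2 change -1.24 ± 0.39, edgeR adjusted p = 0.0451), Nr1i3 (CAR, the xenobiotic receptor; -0.95 ± 0.22, edgeR adjusted p = 0.0105) and Cebpa (-0.40 ± 0.11, edgeR adjusted p = 0.0321). Of 13 alternative fits, 5 made the Nr1d1 call (adjusted p up to 0.153), 11 the Nr1i3 call (up to 0.0582) and 6 the Cebpa call (up to 0.157). Of 16 clock genes, Hlf (log2 change -0.64 ± 0.18, edgeR adjusted p = 0.0303) and Nr1d1 fell, the Hlf call being made in 7 of 13 alternative fits. Clpx, the mitochondrial unfoldase that acts on Alas1 protein, had a log2 change of -0.72 ± 0.38 on 2% iron (edgeR adjusted p = 0.224) and of -1.44 ± 0.39 with cellulose (edgeR adjusted p = 0.0132).

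Of 23 genes listed for heme proteins of the liver, 7 fell and 2 rose on 2% iron against 50 ppm, where 15.7% of all genes were called. The list includes Por, the reductase of cytochromes P450, which does not itself carry heme. The largest falls were in Cyp2d9 (log2 change -1.85 ± 0.25, edgeR adjusted p = 0.000584), Cyp7a1, the rate-limiting enzyme of bile acid synthesis (-1.36 ± 0.39, edgeR adjusted p = 0.0319) and Cyp2e1 (-1.07 ± 0.13, edgeR adjusted p = 0.000489). The 2 that rose, Cyp2b9 (6.56 ± 1.60, edgeR adjusted p = 0.0145) and Cyp2b10 (5.63 ± 1.19, edgeR adjusted p = 0.00684), are close paralogs whose counts can be split between them. The Cyp7a1 call was made in 8 of 13 alternative fits and the Cyp2b9 call in 10 of 12. The median of the 23 was -0.38.

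Blood cells and macrophages also use or break down heme, and their markers moved with the iron diets. Of 8 measured erythroid markers, 5 rose and 1 fell on 2% iron against 50 ppm (15.7% of all genes were called). The summed level of these 8 markers was 328 to 484 CPM on 2% iron, 177 to 447.99 CPM with cellulose and 73.2 to 115 CPM on 50 ppm. The fall was in Alas2, the erythroid isoform of the first enzyme (log2 change -1.51 ± 0.24, edgeR adjusted p = 0.0017), whereas Slc4a1, the red cell anion exchanger, rose by 4.15 (SE 1.1, edgeR adjusted p = 0.0261, called in 6 of 12 alternative fits). The globin genes Hbb-bs and Hba-a2 rose by 3.83 (SE 0.71, edgeR adjusted p = 0.00363) and 3.75 (SE 0.47, edgeR adjusted p = 0.000489), and near-identical globin copies can share counts. All 12 macrophage markers rose, and their sum was 607 to 677 CPM on 2% iron against 168 to 265 CPM on 50 ppm and 653 to 914 CPM with cellulose. The sum of 10 hepatocyte markers was 106183 to 112429 CPM on 2% iron and 94089 to 105544 CPM on 50 ppm. The part of these cells in the enzyme levels was not tested, and fewer cells of a type and less RNA per cell cannot be told apart in whole liver.

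Across the 114 strains on 2% iron, the ratio of the highest to the lowest TPM was largest for Alas1, at 27.7, and smallest for Fech, at 2.01. Alas1 ran from 48.4 TPM in BXD13/TyJ to 1343 TPM in BALB/cByJ, with a median of 350 TPM. Alad ran from 25.7 TPM (BXD38/TyJ) to 225 TPM (BXA26/PgnJ), median 95.5 TPM. Cpox ran from 30.7 TPM (RIIIS/J) to 110 TPM (129X1/SvJ), median 70.8 TPM. Fech ran from 40.4 TPM (NOD/ShiLtJ) to 81.0 TPM (AXB4/PgnJ), median 62.8 TPM, and Urod from 26.7 TPM (BXH2/TyJ) to 63.2 TPM (BXD68/RwwJ), median 42 TPM. The lowest medians were 8.47 TPM for Uros, from 1.52 TPM (BXH2/TyJ) to 16.4 TPM (BXD13/TyJ), and 8.45 TPM for Ppox, from 3.64 TPM (BXD38/TyJ) to 19.2 TPM (AXB19/PgnJ). BXH2/TyJ was thus lowest for both Uros and Urod, and BXD13/TyJ was lowest for Alas1 and highest for Uros. In the 2 mice of 129X1/SvJ, Alas1 was 81.5 and 126 TPM, Alad 131 and 124 TPM, Cpox 105 and 116 TPM and Fech 63.1 and 56.6 TPM.

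**Figure D3:**
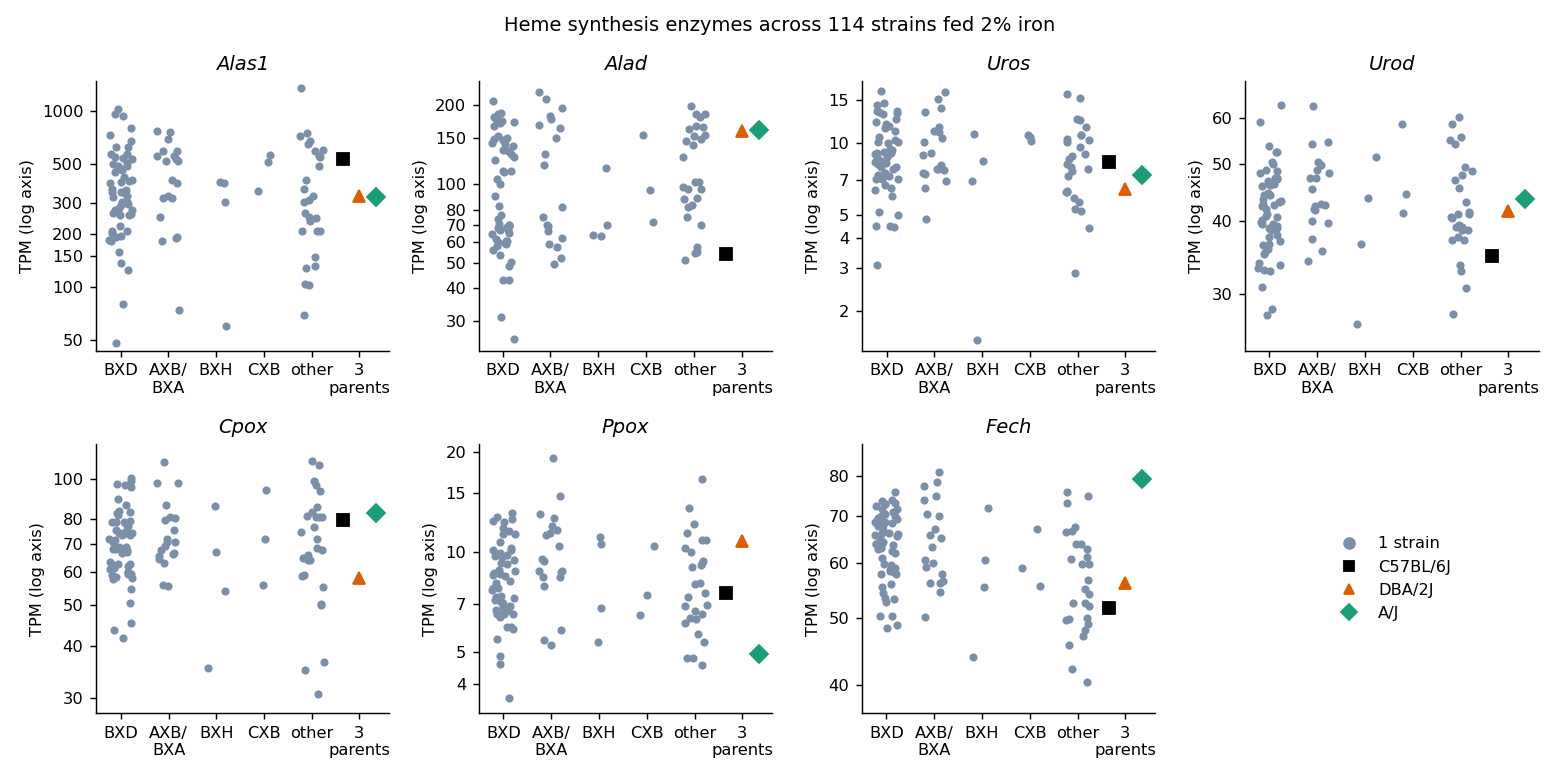
Level of each enzyme in TPM (vertical log axis) in each of 114 strains on 2% iron, by family (horizontal axis), with 3 parents of the recombinant families marked. Alad falls into a lower and an upper group, with C57BL/6J at 54.1 TPM in the lower and DBA/2J and A/J at 160 and 161 TPM in the upper.

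The spread between strains was set beside that between mice on the same diet, since each strain is 1 mouse. For Alad the SD of log2 CPM over strains was 0.70 and within diet groups 0.13, a ratio of 5.37, at the 99.3 percentile of 13410 genes. For Ppox the ratio was 3.31 (95.1 percentile), but on log2(TPM + 1) it was 1.49 (44.4 percentile). On that scale Urod had a ratio of 2.10. Uros had a ratio of 2.19, Fech 2.10, Urod 1.62 and Cpox 1.42, beside a median of 1.65 over all genes. For Alas1 the SD over strains was 0.92, yet the SD between mice on 1 diet was 0.60, and the ratio of 1.53 was at the 41 percentile. The within-diet SD was pooled over all diets, including cellulose, where Alas1 was 818, 640 and 241 CPM. Its value and the ratio without that group were not computed. On 2% iron, Alas1 was 237, 164 and 311 CPM and Alad 49.9, 52.1 and 48.1 CPM. Alas1 thus varied more than Alad among mice of 1 strain and diet.

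The strains fell into a low and a high group for Alad and not for any other enzyme under the same mixture criterion (Ashman's D over 3 and a BIC gain over 10). For Alad the separation D was 3.89, with 60 strains low (25.7 to 102 TPM) and 54 high (100 to 225 TPM). In the BXD family 30 strains were low (25.7 to 89.9 TPM) and 26 high (100 to 208 TPM), with D of 4.36. In the AXB/BXA family 10 were low (49.8 to 81.5 TPM) and 10 high (118 to 225 TPM), with D of 6.52. The parents differed likewise: C57BL/6J was at 54.1 TPM, DBA/2J at 160 TPM, A/J at 161 TPM, C3H/HeJ at 166 TPM and BALB/cByJ at 199 TPM. By log2 CPM, 30 of 56 BXD strains were nearer to C57BL/6J and 26 nearer to DBA/2J, and the AXB/BXA strains divided 10 and 10. The 31 other inbred strains ran from 51.1 to 199 TPM and did not meet the criterion (D of 2.82). The D of the other enzymes over all strains was 0.69 to 1.75. Within families some had D over 3, but a BIC gain of 4.98 or less. In AXB/BXA strains D was 3.77 for Uros and 3.98 for Urod. In other inbred strains it was 3.71 for Uros, 5.80 for Urod and 4.06 for Cpox.

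Of the 12906 genes searched, the one most like Alad over 114 strains was Hdhd3, a haloacid dehalogenase-family hydrolase gene that is also its nearest expressed neighbour on the lower side. Hdhd3 lies at chr4:62499008-62503467 (minus strand), 5.70 kb from Alad. Because the Alad strains fall into groups, the Pearson r is given within each: 0.56 in the 60 low strains and 0.43 in the 54 high strains, as a description. Hdhd3 was 11.9 TPM in C57BL/6J, 21.2 in DBA/2J and 14 in A/J. All 30 BXD strains nearer to C57BL/6J than to DBA/2J for Alad were also nearer to it for Hdhd3. So were 10 of the 26 nearer to DBA/2J for Alad, and 46 of 56 were on the same side for both. Nearer names the closer parent only: Hdhd3 was 1.09 log2 CPM in BXD21/TyJ and 3.28 in C57BL/6J, the lower parent. In AXB/BXA strains 18 of 20 were on the same side, although the parents differed by only 0.16 in log2 CPM of Hdhd3. Hdhd3 was picked for its r with Alad over these same strains, so these counts only describe that relation. The second most like gene was Mrpl14, a mitochondrial ribosomal protein gene on chromosome 17 (r of 0.51 in the low and 0.62 in the high strains).

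**Figure D4:**
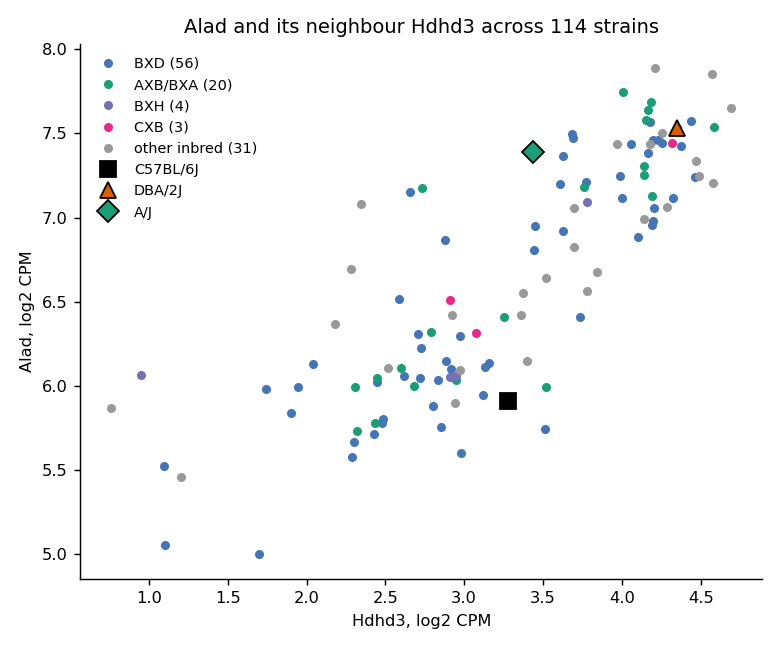
Alad (vertical axis) against its neighbour Hdhd3 (horizontal axis), both in log2 CPM, with 1 point per strain coloured by family and parents marked. Of 56 BXD strains, 30 lie nearer to C57BL/6J than to DBA/2J in both genes and 16 nearer to DBA/2J in both. The other 10 lie nearer to C57BL/6J in Hdhd3 alone.

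The neighbours of Alad were looked at after the Hdhd3 result was seen. Among the 5 nearest expressed protein-coding genes on each side, the 9 other than Hdhd3 had r with Alad of -0.22 to 0.39 in the low strains and -0.41 to 0.46 in the high strains. An r within groups leaves out any difference between the low and high strains. Over all 114 strains, which mixes both groups, r was 0.82 for Hdhd3, -0.41 for Cdc26 and 0.34 for Slc31a1. For the other neighbours it was -0.14 to 0.17. In the 56 BXD strains r was -0.55 for Cdc26. In the high strains Slc31a1, a copper transporter gene, had r of 0.46, as high as Hdhd3. Pole3, 2.73 kb away on the upper side, had r of 0.14 and 0.17. Of the 20 genes most like Alad, 2 lay within 5 Mb of it (Hdhd3 and Mup1, the latter one of a family of near-identical genes), against 0.473% of all genes searched. For Cpox 1 of 20 did (Cldnd1), and for the other 5 enzymes none.

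Alas1 across strains was lower where Arntl and Nr1d1 were higher. Arntl ran down to -1.53 log2 CPM in CBA/J and -1.28 in BXD49/RwwJ, and up to 5.22 in BXD38/TyJ. Few counts stand behind its lowest values. With Arntl, r was -0.47 and rho -0.49, and with Nr1d1 r was -0.45 and rho -0.53 (n = 114 strains, permutation p = 1e-05 for each, the smallest that 100000 resamples give, adjusted p = 7.25e-05 over 29 relations). Without the 2 strains farthest in Alas1 (BXD13/TyJ and BXH14/TyJ), r was -0.50 and -0.42. Within families the Arntl relation had r of -0.33 in 56 BXD, -0.74 in 20 AXB/BXA and -0.57 in 31 other inbred strains (permutation, adjusted p = 0.0396, 0.00899 and 0.00655). The Nr1d1 relation had r of -0.52 in BXD, -0.30 in AXB/BXA and -0.49 in other inbred strains (permutation, adjusted p = 0.00319, 0.427 and 0.0259). Alas1 was higher with Nr1i3 (r = 0.39, rho = 0.37, permutation p = 3e-05 and 4e-05, adjusted p = 0.000145 and 0.000232) and with Ppargc1a, the fasting co-activator known to induce Alas1 (r = 0.34, rho = 0.36, permutation p = 0.00023 and 7e-05, adjusted p = 0.000806 and 0.00029). In BXD, AXB/BXA and other inbred strains, r was 0.44, 0.50 and 0.24 for Nr1i3 (permutation, adjusted p = 0.00558, 0.153 and 0.322) and 0.23, 0.46 and 0.46 for Ppargc1a (permutation, adjusted p = 0.195, 0.198 and 0.0374). With Dbp, Cyp2b10, Cyp3a11 and Hmox1, r was 0.19, 0.19, 0.08 and -0.10, and none passed after adjustment (permutation, adjusted p = 0.0851, 0.0823, 0.49 and 0.439). The genes most like Alas1 were Nampt, the enzyme of NAD salvage and a clock output (r = 0.77), and Morc3 (r = 0.73), chosen as the highest of 12906 genes.

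**Figure D5:**
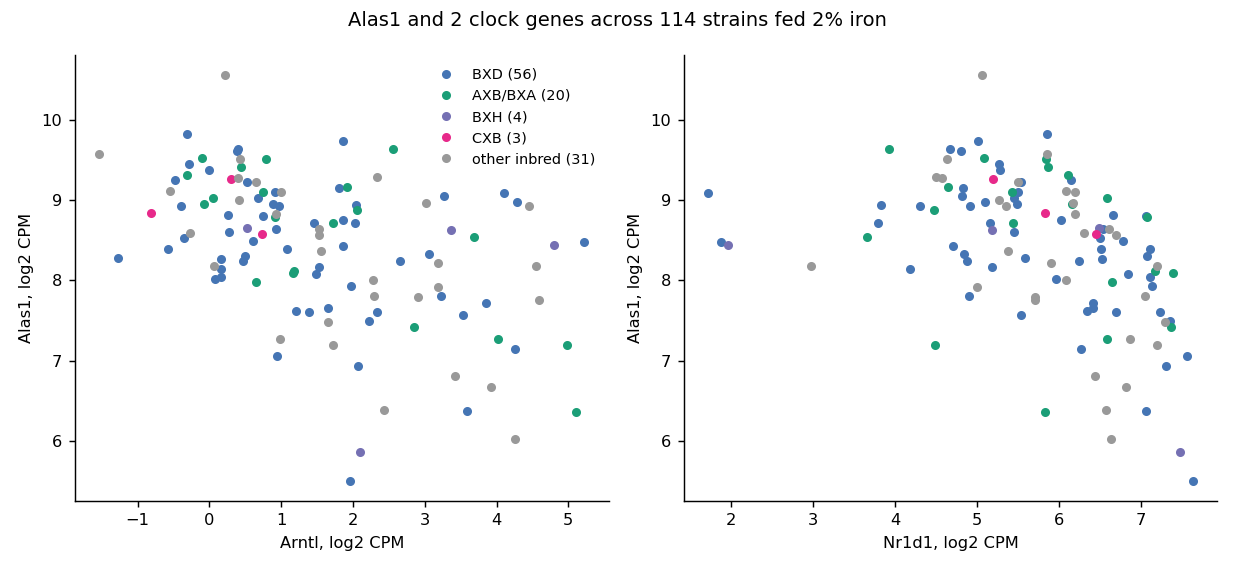
Alas1 (vertical axes) against Arntl (left) and Nr1d1 (right), all in log2 CPM, with 1 point per strain on 2% iron coloured by family. Alas1 declines as either clock gene rises, with r of -0.47 and -0.45 over 114 strains.

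Uros, Urod and Fech were correlated across strains, and no relation of Alas1 with them passed the test. Many other genes were more like each of them than they were like each other. Among 12906 genes searched, the 20th highest r was 0.76 with Urod, 0.68 with Fech and 0.66 with Uros. Urod and Fech had r of 0.59 and rho of 0.54, and Uros and Urod r of 0.57 and rho of 0.48 (permutation p = 1e-05 for each, adjusted p = 7.25e-05). Without NZB/BlNJ and BXH2/TyJ, the strains farthest in Urod and Uros, r was 0.52 and 0.44. Within families, Urod with Fech had r of 0.46 in BXD, 0.63 in AXB/BXA and 0.66 in other inbred strains (permutation, adjusted p = 0.00387, 0.0509 and 0.00135), and Uros with Urod 0.37, 0.15 and 0.63 (permutation, adjusted p = 0.0178, 0.656 and 0.00135). Uros with Fech had r of 0.42 and rho of 0.36 (permutation p = 2e-05 and 0.00014, adjusted p = 0.000116 and 0.000507). Uros with Ppox had r of 0.36 and rho of 0.35 (permutation p = 0.0001 and 0.00021, adjusted p = 0.000414 and 0.000677). Uros and Urod with Cpox had r of 0.26 and 0.23 (permutation, adjusted p = 0.0136 and 0.0329) and rho of 0.09 and 0.08 (permutation, adjusted p = 0.417 and 0.446), but r of 0.09 and 0.03 without BXH2/TyJ and NZB/BlNJ, so those relations rested on these strains. Urod with Ppox had r of 0.31 (permutation, adjusted p = 0.00307), and 0.20 without them (permutation, adjusted p = 0.0804).

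Alas1 with Uros, Urod, Cpox and Fech had r of -0.16, 0.09, 0.07 and 0.09 (permutation, adjusted p = 0.149, 0.439, 0.522 and 0.439). With Ppox its r was -0.34 and rho -0.36 (permutation p = 0.00025 and 7e-05, adjusted p = 0.000806 and 0.00029), with r of -0.38, -0.44 and -0.29 in BXD, AXB/BXA and other inbred strains (permutation, adjusted p = 0.0178, 0.209 and 0.221). On log2(TPM + 1) that relation had r of -0.19 (permutation, adjusted p = 0.098). In all 13 of 29 relations passed. Within the Alad groups, Alad with Urod had r of 0.33 in the 60 low and 0.50 in the 54 high strains (permutation, adjusted p = 0.0342 and 0.00098 over 14 relations), and with Fech 0.03 and 0.47 (permutation, adjusted p = 0.877 and 0.0028).

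The summed level of 11 erythroid markers varied from 13 to 2721 CPM between panel libraries. Red cell precursors make heme for hemoglobin. Urod was lower where that sum was higher (r = -0.27, rho = -0.27, permutation p = 0.00361 and 0.00379, adjusted p = 0.00952 and 0.011), but without BXH2/TyJ and NZB/BlNJ r was -0.20 (permutation, adjusted p = 0.0799), and on log2(TPM + 1) r was -0.09 (permutation, adjusted p = 0.46). For Alas1, Uros, Cpox, Ppox and Fech r ran from -0.16 to 0.05 and none passed. Alad had r of -0.14 in the low and -0.37 in the high strains (permutation, adjusted p = 0.411 and 0.0262).

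Each remaining enzyme had its own most like genes, given by the highest r over 114 strains as a description. They were Mrpl49 (0.71) and Pigq (0.71) for Uros, Bckdha (0.81) and Retreg2 (0.80) for Urod, and Hsdl2 (0.63) and Acot1 (0.61) for Cpox. For Ppox they were Cutal (0.63) and Abca2 (0.62), and for Fech Hibch (0.75) and Mettl7a1 (0.74). Mrpl49 encodes a mitochondrial ribosomal protein, and Bckdha and Hibch encode mitochondrial enzymes of branched-chain amino acid breakdown. In the 56 BXD strains alone, the first gene stayed the same for Alas1, Alad and Cpox and differed for the other 4 enzymes.

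None of the 7 enzymes was called between the BXD and AXB/BXA families by edgeR, DESeq2 or limma, where 11.6% of 13794 genes were called by edgeR. Both families descend from C57BL/6J, the BXD also from DBA/2J and the AXB/BXA also from A/J. All 7 log2 changes were negative, from -0.24 ± 0.09 for Ppox (edgeR adjusted p = 0.0613) to -0.03 ± 0.04 for Fech (edgeR adjusted p = 0.675). The median over all genes was 0.01. An unadjusted p under 0.05 was found for 3 of 7 enzymes, and for 3472 of 13794 genes. Alad differed by -0.21 ± 0.18 (edgeR adjusted p = 0.493), each family holding low and high strains. DBA/2J and A/J, 1 mouse each, lay apart in Ppox (10.8 and 4.94 TPM) and Fech (56.2 and 79.2 TPM), though the family medians were 8.13 and 9.49 TPM for Ppox and 64.8 and 64.1 TPM for Fech. Fech medians of both families thus lay above C57BL/6J at 51.6 TPM, and 46 of 56 BXD strains had more Fech than either parent in TPM, or 31 of 56 in log2 CPM.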

How the data were processed

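Liver RNA was read with a stranded mRNA kit, per the labels' protocols; the submitters' processing notes list kallisto 0.46 and mm10. The authors deposited expected counts per gene and TPM, in separate tables for the diet study and the panel, which were never pooled in a test. Expected counts were rounded and tested with edgeR 4.0.16 (R 4.3.3): TMM factors, filterByExpr, quasi-likelihood test, two-sided, Benjamini-Hochberg over all genes, called under 0.05. All 5 diets were fitted together; BXD were compared with AXB/BXA strains in a second fit, with the strain as replicate. CPM use TMM; log2 CPM add a prior count of 2. SE is the log2 change divided by the root of F. Relations used permutation tests (100000 resamples, two-sided). Tests were checked on simulated data. Alternatives were RLE, other filters, the compared groups alone, DESeq2 1.42.0, limma 3.58.1 on log2(TPM + 1) and log2(TPM + 0.1), leaving out each mouse, without BXD65, and substrains averaged. Ensembl identifiers were matched to GENCODE M21 (34845 of 35274 and 35612 of 35711).

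The enzymes, gene lists and tests were chosen with earlier results of these data known. Named genes were the 7 enzymes; of each context list up to 3 called genes with the largest rise and fall on 2% iron against 50 ppm; the 8 partners of Alas1; the 2 most like genes of each enzyme; the extreme and parental strains; and Clpx, Arntl, Per2, Ciart, the clock genes named beside them and the neighbours of Alad, chosen after their values were seen. A gene that the rule picks from a context list is not reported here. The labels do not say whether mice of a group shared cages or litters.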

Additional observations from a re-analysis of the deposited data

Results flagged for a closer look

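Among the 4 BXH strains, the highest or lowest strain stood apart for 2 of 7 enzymes on the log2 TPM scale, by the gap to its neighbour over the whole range (above Dixon's 95% limit for 4 samples). Alas1 was 60.2 TPM in BXH14/TyJ against 302 to 393 TPM in the other strains, a share of 0.86. Alad was 115 TPM in BXH8/TyJ against 63.2 to 69.6 TPM, a share of 0.839. In a single normal population, chance gives such a gap in about 1 in 20 groups, and 7 enzymes were looked at. That rate does not hold for Alad, whose strains fell into a low group (25.7 to 102 TPM) and a high group (100 to 225 TPM). BXH8/TyJ lay in the range of the high group and the other BXH strains in that of the low group. Each strain is 1 mouse.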

How the results depend on the processing

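No paired analysis was possible because the labels name nothing that pairs mice of different diets. The replicate numbers used here follow the order of the samples and are not given by the labels. With 3 mice per diet, calls near the threshold moved with the choice of fit. Against 50 ppm, 2% iron gave 2 called enzymes in place of 1 with RLE size factors, a minimum of 10 counts or DESeq2. Against chow it gave 1 in place of 2 without a filter and with either limma fit. On 2% iron with cellulose against 50 ppm, 4 calls became 2 without a filter and 1 with either limma fit, and against chow 4 became 1 with either limma fit. Leaving out 1 mouse gave 1 to 2 calls for 2% iron against 500 ppm, 1 to 2 against chow, 0 to 1 for cellulose against 2% iron, 1 to 4 for cellulose against 50 ppm and 2 to 3 for cellulose against chow.

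Of 784 alternative log2 changes of the enzymes, 724 kept their direction and side of the threshold, or moved across 0 by less than 1 SE with no call in either fit; 42 lost a call, 5 gained one and 13 reversed. Between 500 and 50 ppm, Alad was -0.13 to 0.062 with 1 mouse left out (positive without 50 ppm replicate 1), Uros -0.16 to 0.15 (positive without 500 ppm replicate 2) and Cpox -0.14 to 0.21 (negative without 500 ppm replicate 1). With limma on log2(TPM + 1) and log2(TPM + 0.1), Ppox turned to -0.23 and -0.25 for 2% iron against chow and to 0.033 and 0.038 for chow against 50 ppm. Fech turned to 0.047 and 0.048 for cellulose against 50 ppm and to 0.14 and 0.15 against chow, and Urod to 0.13 and 0.13 against chow. The TPM scale itself shifted the median of all genes by up to 0.20, for cellulose against chow. Relations of Cpox with Ppox turned to 0.021 on log2(TPM + 1), and Cpox with Fech to -0.085 and Uros with the erythroid sum to 0.046 without BXH2/TyJ and NZB/BlNJ (strains picked after the data were seen). The count of 13 relations was 10 to 13 over the alternatives. The causes were not tested. Depth limits Uros most, at 92 to 227 counts per diet mouse.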
